A study of Mus musculus with 8 samples.

Results

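The genes described here are the 4 inhibitors of differentiation (Id1, Id2, Id3 and Id4), myostatin (Mstn), transforming growth factor beta 1 (Tgfb1) and 4 receptors of the same signalling family (Tgfbr1, Tgfbr2, Bmpr1a and Acvr2b). They were taken by name from the pathway rather than by a cut on their values, with earlier results of these data known, and are 10 of the 57180 genes in the deposited count and TPM tables. All 10 were found, and all 10 passed the filter on low counts that left 15660 genes for testing. The cells were muscle stem cells of the mouse, sorted by FACS and sequenced without culture. Of the 8 libraries, 4 were control (replicates 2, 5, 7 and 8), with the genotype given as WT. The other 4 (replicates 5, 6, 7 and 8) are titled RhoA het; their genotype field reads RhoA knockdown, and the design text names them SC-RhoAfl/+, a floxed RhoA allele over an intact allele. RhoA is a small GTPase that organises the actin cytoskeleton, and the stated purpose was to see what changes in expression and splicing when its activity is reduced. The Cre driver, any treatment to induce it, the age of the animals and whether a library came from 1 animal or a pool are not given in the sources used here. No label says that the libraries came from separate animals, so each p-value measures the spread between these libraries, which may be technical.

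Ligands of the TGF-beta family bind pairs of type II and type I receptor kinases, and the activated type I receptor phosphorylates Smad proteins that enter the nucleus and change transcription. TGF-betas, activins and myostatin act mainly through Smad2 and Smad3, and bone morphogenetic proteins (BMPs) through Smad1, Smad5 and Smad9, with the Id genes among the best known BMP targets. Id proteins have a helix-loop-helix for pairing but no basic region for binding DNA, so they sequester E proteins and keep MyoD-type factors from forming active dimers; in muscle stem cells this holds back differentiation. Myostatin restrains muscle mass and is made chiefly by muscle fibres.

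The libraries held 19138763 to 25606342 assigned fragments, with 23762 to 24942 genes detected in each. Markers of the labelled cell type were present: all 12 muscle stem cell markers were detected in every library, with a summed level of 9753 to 16969 CPM. CPM is a gene's count over its library's total, on a common scale set by TMM, a trimmed mean of ratios between libraries. Pax7, the defining transcription factor, was at 112.5 to 175.8 CPM in control and 78.5 to 105.6 CPM in RhoA het. Its groups did not overlap, as in 1.81% of all genes (log2 fold change -0.51, edgeR unadjusted p 0.0173), and it did not pass the adjusted threshold. The 10 fibro-adipogenic markers summed to 2421 to 10833 CPM. In control and RhoA het replicate 5 their sums, 10833 and 9114 CPM, came near the stem cell sums of 11027 and 9753 CPM. Of 8 immune markers, 6 to 8 were detected in each library, with sums of 124.6 to 357.9 CPM in control and 94.8 to 323.5 CPM in RhoA het; Adgre1, Cd3e or both were at 0 in 7 of the 8 libraries. Some libraries stood apart. The 7 mural markers were highest in RhoA het replicate 8, with a sum of 2319 CPM, where every other library had 647 to 1510 CPM. The 5 erythroid markers summed to 319.3 CPM in RhoA het replicate 6 and 142.6 CPM in control replicate 7. Their sums elsewhere were 1.86 to 25.4 CPM. RhoA het replicate 6 held 691.8 CPM of the 10 endothelial markers, against 74.3 to 169.9 in the other 7, with Pecam1, an endothelial adhesion molecule, at 137.3 CPM against 2.54 to 16.1. Both libraries numbered 5 held the highest sums of 20 cell cycle genes (599 CPM in control and 452 in RhoA het, against 153 to 228). Y-chromosome genes took 15179 fragments in control replicate 2 and 15137 in RhoA het replicate 6, against 218 to 677 in the other 6. Xist, transcribed from the inactive X chromosome of female cells, took 5 and 7 fragments in these libraries, against 3539 to 5188 in the other 6. Rhoa itself measured 382.9, 309.2, 272.6 and 333.6 CPM in control replicates 2, 5, 7 and 8 and 252.5, 271.3, 253.2 and 282.1 CPM in RhoA het replicates 5, 6, 7 and 8, so that the groups overlapped (log2 fold change -0.29, edgeR unadjusted p 0.0495). In bulk libraries such as these, fewer cells of a type and less RNA per cell cannot be told apart.

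Promoter sequences are shown for Id2, Id3 and Id4, whose levels are compared below, and for Mstn, the least abundant gene of the set. Each is the 250 bases upstream of the annotated start, taken from a RefSeq table on GRCm38.p6, an older assembly than the mm39 of the counts; 9 of the 10 genes had an entry, and Id1 did not match. Capitals mark matches on either strand to any of 5 short motifs, and where motifs overlap the capitals run together. GGCGCC is a sequence found in BMP-responsive elements. The motif TATAAA is the core of a classical promoter box near the start. The E-box, which MyoD-type factors with their E protein partners bind, was searched as CANNTG. The motif CCAAT is bound by the factor NF-Y. Proteins of the Sp1 family bind GGGCGG. Each is written 5′ to 3′ on the gene's own strand, and the windows are chr12:25096093-25096342 (minus strand) for Id2, chr4:136143572-136143821 (plus) for Id3, chr13:48260866-48261115 (plus) for Id4 and chr1:53061390-53061639 (plus) for Mstn.
Id2: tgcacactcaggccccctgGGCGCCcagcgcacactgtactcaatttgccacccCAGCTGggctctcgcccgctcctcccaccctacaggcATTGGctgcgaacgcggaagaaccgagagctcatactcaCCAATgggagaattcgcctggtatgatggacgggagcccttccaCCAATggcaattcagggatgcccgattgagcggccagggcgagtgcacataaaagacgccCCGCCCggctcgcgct
Id3: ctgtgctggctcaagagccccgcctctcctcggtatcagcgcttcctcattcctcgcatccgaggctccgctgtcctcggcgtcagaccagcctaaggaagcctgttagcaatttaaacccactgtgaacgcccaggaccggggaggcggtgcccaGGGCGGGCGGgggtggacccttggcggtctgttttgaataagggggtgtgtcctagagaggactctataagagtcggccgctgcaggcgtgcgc
Id4: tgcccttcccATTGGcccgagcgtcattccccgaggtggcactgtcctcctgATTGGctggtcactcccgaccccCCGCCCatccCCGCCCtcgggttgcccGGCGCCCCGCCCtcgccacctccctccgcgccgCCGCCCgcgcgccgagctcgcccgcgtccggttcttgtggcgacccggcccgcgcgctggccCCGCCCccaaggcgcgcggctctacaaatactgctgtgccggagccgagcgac
Mstn: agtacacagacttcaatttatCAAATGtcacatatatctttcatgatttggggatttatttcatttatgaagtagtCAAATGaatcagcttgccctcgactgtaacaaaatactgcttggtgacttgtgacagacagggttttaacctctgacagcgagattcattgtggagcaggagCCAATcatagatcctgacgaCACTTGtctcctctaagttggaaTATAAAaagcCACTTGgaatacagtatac
The Id windows were GC-rich, with 62.8% G or C in Id2 and Id3 and 75.6% in Id4, whereas the Mstn window held 38.4%. The median over 32851 promoter windows of this length was 52.4%. GC-rich windows were not particular to the Id genes: those of Tgfb1, Acvr2b and Bmpr1a held 75.2%, 72.8% and 78.8%, and that of Tgfbr2 58.4%. GGGCGG occurred in each Id window (1 match in Id2, 2 overlapping in Id3 and 5 in Id4) and in 32.7% of all windows. GGCGCC occurred 1 time each in Id2 and Id4, where the Id4 match runs directly into a match of the Sp1 motif, and in 9.59% of all windows. Among the windows not shown, GGGCGG matched 5 times in Tgfb1, 4 in Bmpr1a, 3 in Acvr2b and 0 in Tgfbr2. GGCGCC matched 1 time each in Bmpr1a and in a window of Tgfbr1. Of the 4 windows shown, Mstn held the only TATAAA match, 29 bases before the start, and 4 of the 5 E-box matches. Of all windows, 12.4% held TATAAA and 66.2% an E-box. CCAAT was matched 3 times in Id2, 2 times in Id4 and 1 time in Mstn (33.8% of all windows). These matches describe letters in the windows and are not binding sites shown by these data.

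Levels of different genes were compared per gene length, on the deposited TPM scale. Id3 was the most abundant, at 1803 ± 720 TPM (SD over 8 libraries), followed by Id1 at 277.0 ± 69.0 and Id2 at 212.4 ± 44.3. The type I TGF-beta receptor Tgfbr1 averaged 105.2 ± 13.8 TPM, its type II partner Tgfbr2 43.6 ± 6.24, and the BMP type I receptor Bmpr1a 20.9 ± 2.63. Below these lay Tgfb1 at 4.81 ± 1.44 TPM, Id4 at 4.12 ± 1.16, the activin and myostatin receptor Acvr2b at 1.28 ± 0.314 and Mstn at 0.864 ± 0.480. Of the 9 steps between neighbours in this order, 7 held in all 8 libraries. The exceptions were Tgfb1 over Id4, which held in 5 of 8, and Acvr2b over Mstn, which held in 6 of 8, so neither of those pairs differed beyond its spread between libraries. Of the Id genes, 3 thus lay above every receptor of the set, while Id4 lay beside Tgfb1, below Bmpr1a and above Acvr2b.

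**Figure D1:**
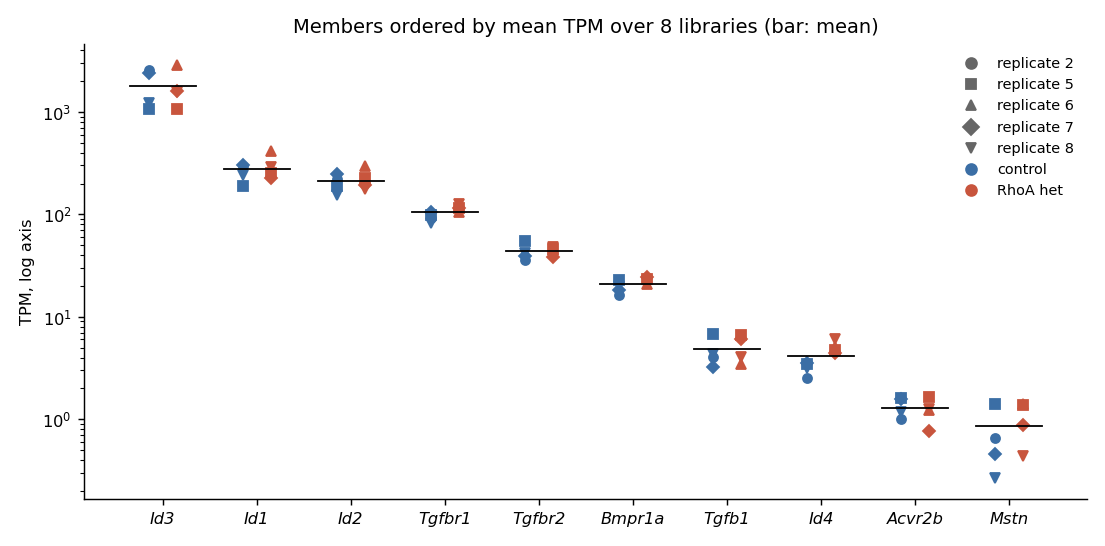
Deposited TPM of the 10 genes in each of the 8 libraries, on a log scale, with genes ordered by their mean over libraries; blue points are control and red points RhoA het, and the black bar is the mean. Id3 lies above all other genes in every library, and the points of Tgfb1 and Id4, and of Acvr2b and Mstn, intermingle.

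Id3 (ENSMUSG00000007872.4; mm39 chromosome 4, 135870808 to 135873066, plus strand) measured 1790.6, 535.7, 1286.4 and 723.3 CPM in control replicates 2, 5, 7 and 8. In RhoA het replicates 5, 6, 7 and 8 it measured 554.1, 1685.5, 857.8 and 852.8 CPM. Both groups spanned nearly the same range, with the libraries numbered 5 lowest in each and control replicate 2 and RhoA het replicate 6 highest. The means were 1084 ± 569 and 988 ± 487 CPM (SD, n = 4 each). RhoA het differed from control by -0.13 on the log2 scale (95% confidence interval -1.08 to 0.81, SE 0.42; edgeR quasi-likelihood test unadjusted p 0.757). Its coefficient of variation over the 8 libraries was 47.6%, against a median of 23.0% over all genes tested, and the highest library was 3.34-fold above the lowest. Id3 was covered by 11532 to 35455 fragments per library.

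Id1 (ENSMUSG00000042745.10; chromosome 2, 152578171 to 152579330, plus strand), the Id gene most often used as a readout of BMP signalling, measured 134.1, 60.9, 105.2 and 91.5 CPM in control replicates 2, 5, 7 and 8. It measured 85.3, 157.3, 78.3 and 100.8 CPM in RhoA het replicates 5, 6, 7 and 8. The lowest value was again in control replicate 5 and the highest in RhoA het replicate 6, and the groups overlapped throughout. For Id1 the log2 fold change was 0.11 (interval -0.51 to 0.72, SE 0.28; edgeR unadjusted p 0.708). Id2 (ENSMUSG00000020644.10; chromosome 12, 25143798 to 25147139, minus strand), which also pairs with E proteins, measured 207.1, 127.5, 179.5 and 123.6 CPM in control. Its values in RhoA het were 158.8, 233.8, 143.3 and 128.9 CPM, likewise overlapping and likewise highest in replicate 6. For Id2 it was 0.060 (interval -0.46 to 0.58, SE 0.23; edgeR unadjusted p 0.799).

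The direction of these 3 genes was set by single libraries. Without RhoA het replicate 6, the library with the high endothelial markers, the log2 fold changes were -0.15 for Id1, -0.15 for Id2 and -0.52 for Id3. Without control replicate 2 they were 0.29, 0.21 and 0.22. Within the 3 pairs of libraries that share a number, Id1 was higher in RhoA het by 0.49 on the log2 scale in pair 5, lower in pair 7 (-0.43) and higher by 0.14 in pair 8. Id2 followed the same signs (0.32, -0.32 and 0.061), and so did Id3 (0.049, -0.58 and 0.24). No direction was thus shared by all pairs for any of the 3. RhoA het replicate 6 also differed in its endothelial markers, as given above, and the part of those cells in its Id levels was not tested.

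In CPM, Id1, Id2 and Id3 were highest in the same 2 libraries, control replicate 2 and RhoA het replicate 6. On the TPM scale RhoA het replicate 6 was also highest for each. There control replicate 7 lay above control replicate 2 for Id1 (302.6 against 298.5 TPM) and Id2 (245.5 against 219.4 TPM). The 2 libraries highest in CPM are also those with the high Y-chromosome fragments given above, and the part of that difference in the Id levels was not tested. In the other 6 libraries, as pairs with the block, the log2 fold changes were 0.041 for Id1, -0.0065 for Id2 and -0.12 for Id3 (edgeR unadjusted p 0.805, 0.963 and 0.460). Over the 8 libraries, log2 CPM of Id1 and Id3 correlated with a Pearson r of 0.892 (exact permutation p 0.00288, adjusted p 0.129 over the 45 pairs of genes) and a Spearman rho of 0.833 (exact permutation p 0.0154, adjusted 0.419). For Id2 and Id3, r was 0.834 (exact permutation p 0.0133, adjusted 0.199) and rho 0.786 (p 0.0279, adjusted 0.419). For Id1 and Id2, r was 0.825 (exact permutation p 0.0110, adjusted 0.199) and rho 0.738 (p 0.0458, adjusted 0.516). None of the 45 pairs passed the adjustment, in a range of r from -0.663 to 0.892. The 2 libraries farthest from the median of Id1 were RhoA het replicate 6 and control replicate 5. Without them, r was 0.841 for Id1 with Id3 and 0.670 for Id1 with Id2. Farthest from the median of Id2 were RhoA het replicate 6 and control replicate 2, and without them r was 0.513 for Id2 with Id3. Libraries sharing a number are not independent, so these p-values are too small if the numbers mark shared sources. The summed level of 15 genes induced by tissue dissociation, all detected in every library, moved with Id3: it was 53751 CPM in control replicate 2, 50345 in control replicate 7 and 48104 in RhoA het replicate 6, the 3 libraries highest in Id3. It was 25285 and 22880 CPM in control and RhoA het replicate 5, the lowest libraries for Id3, and 38713 to 39707 CPM in the other 3. Its part in the Id levels was not tested.

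**Figure D2:**
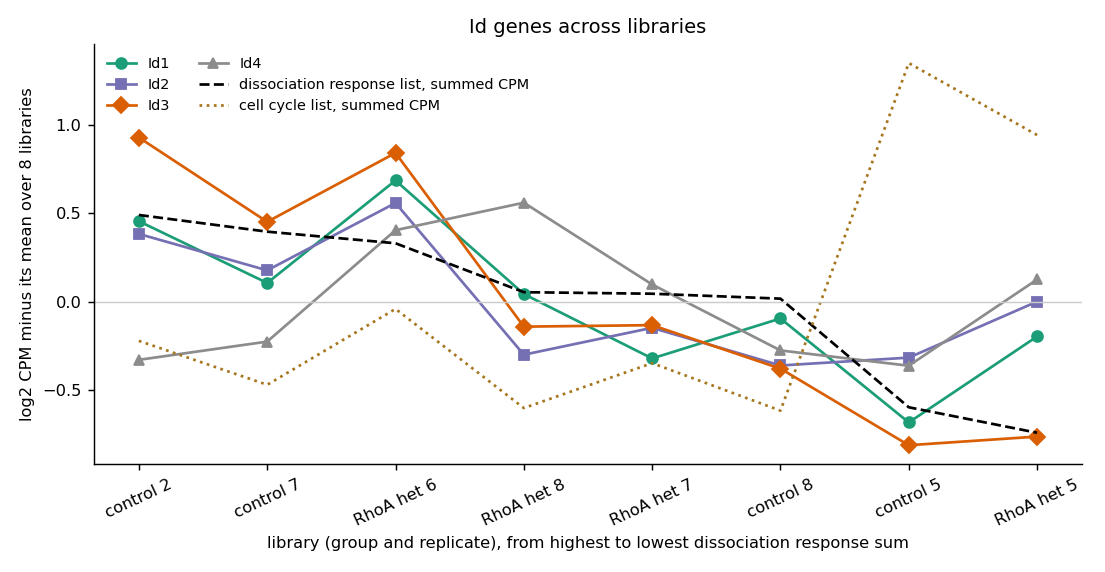
Log2 CPM of each Id gene in each of the 8 libraries, minus its mean over them, with the summed CPM of the 15 dissociation genes (dashed) and of the 20 cell cycle genes (dotted) centred the same way; libraries run from the highest to the lowest dissociation sum. Id1, Id2 and Id3 are highest in control replicate 2 and RhoA het replicate 6, and Id4 is higher in each RhoA het library than in any control library.

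Id3 made up 78.5% ± 4.48 of the summed TPM of the 4 Id genes in control and 76.3% ± 5.10 in RhoA het (SD, n = 4 each), with single libraries between 68.8% and 83.2%. The sum itself ran from 1448 TPM in control replicate 5 to 3610 TPM in RhoA het replicate 6. The pool of Id transcripts was therefore mostly Id3 in every library, and Id4 contributed 0.158% ± 0.0702 in control and 0.239% ± 0.0761 in RhoA het.

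Id4 was the gene of the set whose groups did not overlap in CPM, and it did not pass the adjusted threshold. Id4 (ENSMUSG00000021379.3; chromosome 13, 48414704 to 48419502, plus strand) is the family member known to act in part by opposing the other Id proteins. It measured 3.80, 3.72, 4.08 and 3.95 CPM in control replicates 2, 5, 7 and 8, from 72, 80, 109 and 84 fragments. It measured 5.21, 6.32, 5.11 and 7.04 CPM in RhoA het replicates 5, 6, 7 and 8, from 111, 133, 114 and 137 fragments. Every RhoA het library lay above every control library, and the control values were close together. The means were 3.89 ± 0.162 and 5.92 ± 0.928 CPM (SD, n = 4 each). The fitted level was 52.2% higher in RhoA het, or 0.61 on the log2 scale (interval 0.17 to 1.04, SE 0.19). The unadjusted p of the edgeR quasi-likelihood test was 0.0112, but the p adjusted over all 15660 genes was 1, and Id4 ranked 54 among them by p. The two-sided exact permutation p was 0.0286, the smallest that 4 libraries against 4 can give.

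On the TPM scale the separation of Id4 was also complete, with 2.55 to 3.54 TPM in control and 4.42 to 6.08 TPM in RhoA het. It was higher in RhoA het in each of the pairs 5, 7 and 8, by 0.48, 0.32 and 0.82 on the log2 scale of CPM. Leaving out each library in turn gave log2 fold changes of 0.51 to 0.66 and edgeR unadjusted p-values of 0.0119 to 0.0383. Blocking on the number in these 3 pairs, the log2 fold change was 0.52 (interval -0.019 to 1.07, edgeR unadjusted p 0.0573). Without RhoA het replicate 6, the library with the high endothelial markers, the log2 fold change was 0.57 (edgeR unadjusted p 0.0296). The 7 mural markers summed to 795, 1510, 647 and 2319 CPM in RhoA het replicates 5, 6, 7 and 8, the same order as Id4. In control replicates 2, 5, 7 and 8 they summed to 667, 1000, 893 and 1159 CPM, in another order than Id4. Without RhoA het replicate 8 the log2 fold change of Id4 was 0.51. The part of mural RNA in the Id4 level was not tested. A pair of genes on the opposite strand, A330033J07Rik and Gm49291, overlap exons of Id4, and since the counts ignore strand their reads cannot be told apart from those of Id4 there; neither was assigned more than 4 fragments in a library.

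Myostatin (Mstn, ENSMUSG00000026100.7; chromosome 1, 53100799 to 53107238, plus strand) drew only 13, 23, 10 and 5 fragments in control replicates 2, 5, 7 and 8, and in RhoA het replicates 5, 6, 7 and 8 it drew 23, 26, 16 and 7. These correspond to 0.687, 1.07, 0.375 and 0.235 CPM in control and 1.08, 1.24, 0.717 and 0.360 CPM in RhoA het. Replicate 8 was lowest in both groups and the groups overlapped. For Mstn the log2 fold change was 0.53 (interval -0.66 to 1.71, SE 0.53; edgeR unadjusted p 0.342). It was 0.26 without control replicate 8 and 0.97 without control replicate 5. Values were higher in RhoA het in all 3 pairs, by 0.014, 0.79 and 0.47 on the log2 scale. Myofibre transcripts, from the cells that chiefly make myostatin, were present in every library; the 11 myofibre markers summed to 79.3, 510.0, 224.5 and 88.6 CPM in control replicates 2, 5, 7 and 8. In RhoA het replicates 5, 6, 7 and 8 they summed to 217.6, 472.0, 75.4 and 50.8 CPM. Within the pairs 5, 7 and 8 the myofibre sum was thus lower in RhoA het each time, where Mstn was higher. Across libraries, the highest sums (510.0 CPM in control replicate 5 and 472.0 in RhoA het replicate 6) went with high Mstn (1.07 and 1.24 CPM). The lowest sum (50.8 CPM in RhoA het replicate 8) went with low Mstn (0.360 CPM). Control replicate 7 went the other way, with 224.5 CPM of myofibre markers and 0.375 CPM of Mstn. With the block over these pairs, 9 of the 11 markers had an edgeR unadjusted p under 0.05 and were lower, against 2.28% of all genes, with a median log2 fold change of -1.22. Among them were the 2 genes changed at an adjusted p under 0.05 in that fit, while over all 8 libraries 0 of the 11 had an unadjusted p under 0.05. The part of myofibre RNA in the Mstn level was not tested.

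Tgfb1 (ENSMUSG00000002603.16; chromosome 7, 25386427 to 25404502, plus strand), a secreted ligand stored in latent form in the matrix, measured 7.82, 9.62, 4.91 and 7.14 CPM in control replicates 2, 5, 7 and 8. In RhoA het replicates 5, 6, 7 and 8 it measured 9.53, 5.61, 9.19 and 6.12 CPM. The groups covered the same range, and the means of 7.37 ± 1.94 and 7.61 ± 2.03 CPM (SD, n = 4 each) were nearly equal. Between groups Tgfb1 differed by 0.048 on the log2 scale (interval -0.55 to 0.65, SE 0.27; edgeR unadjusted p 0.860).

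Among the receptors, Tgfbr1 (ENSMUSG00000007613.16; chromosome 4, 47353222 to 47414931, plus strand), the type I receptor kinase that phosphorylates Smad2 and Smad3, measured 232.7, 181.7, 204.9 and 177.7 CPM in control replicates 2, 5, 7 and 8. It measured 218.2, 223.7, 227.9 and 245.9 CPM in RhoA het replicates 5, 6, 7 and 8. All RhoA het values exceeded those of control replicates 5, 7 and 8, whereas control replicate 2 lay above 3 of the 4 RhoA het libraries. The means were 199.2 ± 25.4 and 228.9 ± 12.0 CPM (SD, n = 4 each), and the log2 fold change 0.20 (interval -0.074 to 0.47, SE 0.12; edgeR unadjusted p 0.134). Control replicate 2 also had the lowest TMM factor, 0.852, and without that library the log2 fold change was 0.28 (edgeR unadjusted p 0.0395). On the TPM scale the groups did not overlap, with at most 104.6 TPM in control and at least 105.2 TPM in RhoA het, a gap far smaller than the spread within either group. Within pairs 5, 7 and 8 the difference was 0.26, 0.15 and 0.47 on the log2 scale of CPM, and the block fit over them gave 0.27 (interval 0.016 to 0.53, edgeR unadjusted p 0.0395, adjusted p 0.921).

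Tgfbr2 (ENSMUSG00000032440.14; chromosome 9, 115913361 to 116004428, minus strand), the type II receptor that binds TGF-beta and recruits Tgfbr1, measured 112.4, 125.8, 96.8 and 113.1 CPM in control replicates 2, 5, 7 and 8. It measured 108.8, 118.7, 93.7 and 118.6 CPM in RhoA het replicates 5, 6, 7 and 8. The number 7 library was lowest in each group and the means nearly coincided. Its log2 fold change of -0.027 (interval -0.31 to 0.26, SE 0.13; edgeR unadjusted p 0.837) took the opposite sign, 0.016, when libraries were scaled by total counts.

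Bmpr1a (ENSMUSG00000021796.16; chromosome 14, 34132691 to 34225298, minus strand), a type I receptor for BMPs, measured 40.4, 40.6, 34.9 and 41.5 CPM in control replicates 2, 5, 7 and 8. It measured 42.3, 43.3, 46.2 and 41.4 CPM in RhoA het replicates 5, 6, 7 and 8. The groups met at replicate 8, where the RhoA het value lay just under the control value, and control replicate 7 was lowest by some distance. Its log2 fold change was 0.14 (interval -0.10 to 0.38, SE 0.11; edgeR unadjusted p 0.223, two-sided exact permutation p 0.0571), and 0.084 without control replicate 7. Bmpr1a varied least of the set over the 8 libraries, with a coefficient of variation of 7.72%. A gene on the opposite strand, Gm17110, overlaps its exons and was assigned at most 4 fragments in a library.

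Acvr2b (ENSMUSG00000061393.15; chromosome 9, 119231184 to 119264061, plus strand), the type II receptor that myostatin prefers, was low at 1.53, 1.77, 1.84 and 1.503 CPM in control replicates 2, 5, 7 and 8, from 29 to 49 fragments. In RhoA het replicates 5, 6, 7 and 8 it was at 1.88, 1.57, 0.897 and 1.49 CPM, from 20 to 40 fragments. The highest and the lowest value of all 8 libraries were both in RhoA het. For Acvr2b the log2 fold change was -0.19 (interval -0.83 to 0.45, SE 0.29; edgeR unadjusted p 0.527), and -0.018 without RhoA het replicate 7. The related receptor gene Acvr2a, from the list of other receptors below, averaged 36.5 ± 7.71 TPM (SD over 8 libraries), against 1.28 for Acvr2b.

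**Figure D3:**
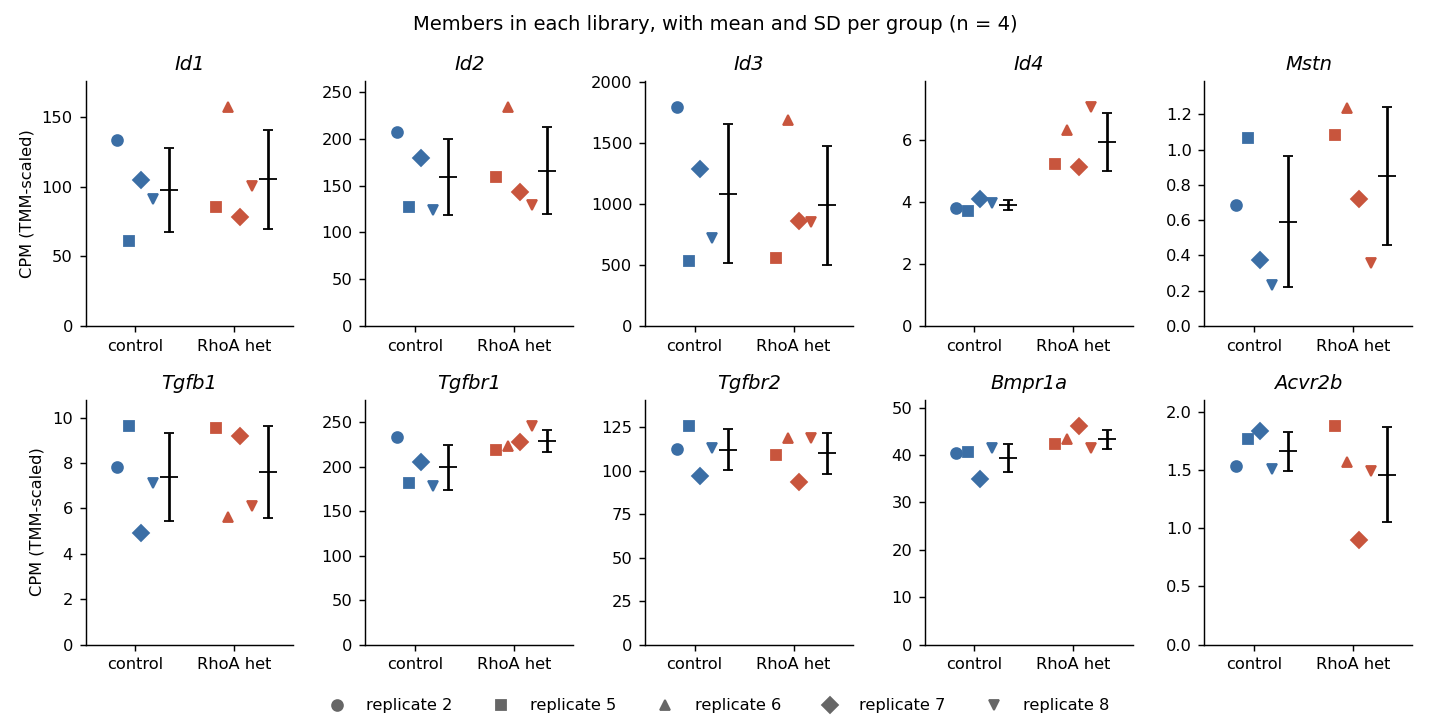
TMM-scaled CPM of each of the 10 genes in each library, on linear axes from 0, with symbols for the replicate number and black bars for the group mean and SD (n = 4). The groups do not overlap for Id4, and they overlap for the other 9 genes.

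Of these 10 genes, 0 were changed at an adjusted p under 0.05 by edgeR's quasi-likelihood test, and the share over all 15660 genes tested was also 0%. By the DESeq2 Wald test and by limma-voom, 0 of the 10 were changed as well, with 1 at an unadjusted p under 0.05 by each, against 1.57% of all genes by DESeq2 and 3.13% by limma-voom. At an unadjusted p under 0.05 there was 1 of 10, Id4, against 2.38% of all genes (372); it was higher in RhoA het, as were 1.68% of all genes, and 0 of 10 were lower, against 0.696%. The groups did not overlap in CPM for 1 of 10, again Id4, against 1.81% of all genes, and in TPM for 2 of 10, Id4 and Tgfbr1, against 1.51% (1.18% of all genes were apart in TPM and higher in RhoA het, as both were). CPM was higher in RhoA het in all 3 pairs for 3 of 10 genes (Id4, Mstn and Tgfbr1), against 13.6% of all genes, and lower in all 3 pairs for 0 of 10, against 12.5%. Fold changes were above 0 for 7 of 10 genes, with a median log2 fold change of 0.083, against -0.00071 over all genes tested. These shares rest on 10 genes of related function and say nothing particular of the set.

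**Figure D4:**
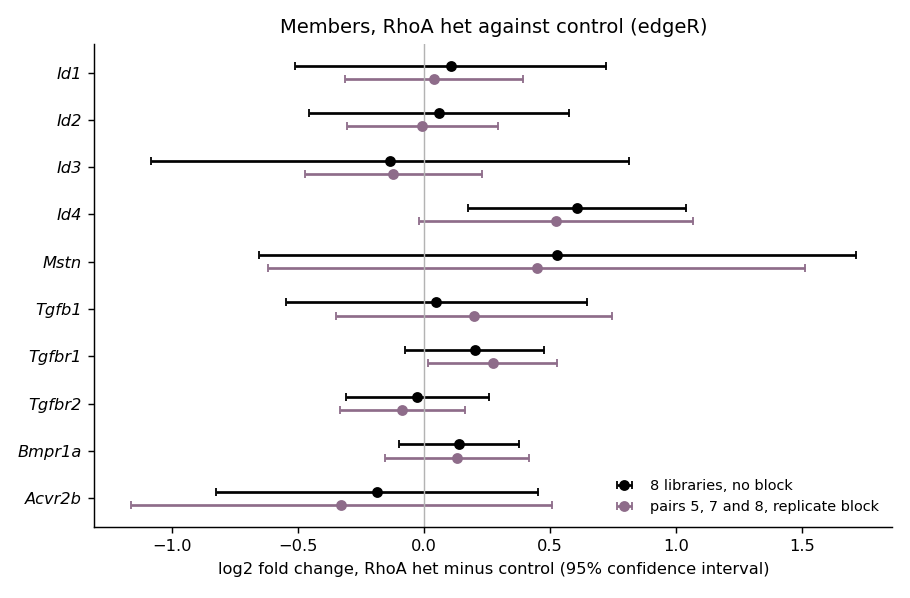
Log2 fold change of each gene in RhoA het against control with its 95% confidence interval, from edgeR over all 8 libraries and from the fit that blocks on the replicate number in pairs 5, 7 and 8. The interval over 8 libraries excludes 0 for Id4 and the interval of the block fit excludes 0 for Tgfbr1; no adjusted p passes 0.05 in either.

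The rest of the pathway was read from 6 lists of textbook members, 81 genes in all, of which 68 passed the filter on low counts. By edgeR's quasi-likelihood test, 0 of the 68 were changed in either direction and 0 had an unadjusted p under 0.05; the DESeq2 Wald test and limma-voom also called 0, with 1 gene each at an unadjusted p under 0.05. Fold changes were above 0 for 42 of 68, with a median log2 fold change of 0.086. The groups did not overlap in CPM for 2 of 68, Gdf6 and Tcf4, both higher in RhoA het (1.02% of all genes did not overlap and were higher).

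Of 13 other ligands tested, 9 had a fold change above 0 (median log2 fold change 0.20). Gdf6, a BMP-type ligand, measured 3.38, 3.58, 1.31 and 1.88 CPM in control replicates 2, 5, 7 and 8 and 3.71, 3.90, 5.69 and 3.96 CPM in RhoA het replicates 5, 6, 7 and 8. The groups were narrowly apart (log2 fold change 0.77, SE 0.35; edgeR unadjusted p 0.0516, exact permutation p 0.0286). Bmp4, which acts through Bmpr1a, and Tgfb3 were the most abundant of these ligands, at 125.6 ± 36.8 and 116.9 ± 14.99 TPM (SD over 8 libraries), well above Tgfb1. The log2 fold change of Bmp4 was 0.31 (SE 0.25; edgeR unadjusted p 0.242) and 0.037 without RhoA het replicate 6, the library with the high endothelial markers.

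Of 10 other receptors and co-receptors tested, 8 had a fold change above 0 (median 0.19). The co-receptor Tgfbr3, which presents TGF-beta to Tgfbr2, was the most abundant at 241.4 ± 57.1 TPM, ahead of endoglin (Eng) at 51.0 ± 21.7 TPM (SD over 8 libraries). The smallest p-values of this list belonged to the BMP type II receptor Bmpr2 (log2 fold change 0.23, SE 0.13; edgeR unadjusted p 0.112) and to Bmpr1b (-0.39, SE 0.34; p 0.279; -0.20 without RhoA het replicate 6). All 8 Smad genes were tested, 5 of them with a fold change above 0 (median 0.11). Smad5 and Smad3, a BMP and a TGF-beta signal transducer, were the most abundant at 60.3 ± 14.7 and 52.7 ± 8.13 TPM (SD over 8 libraries). Smad2 (log2 fold change -0.15; edgeR unadjusted p 0.310) and Smad1 (-0.16; p 0.356) had the smallest p-values of the 8, so no Smad approached a call. Leaving out each library in turn gave -0.24 to -0.074 for Smad2 and -0.26 to -0.061 for Smad1.

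Of 21 inhibitors and ligand-binding proteins tested, 10 had a fold change above 0 (median -0.0096). The latent TGF-beta binding protein Ltbp4 and the TGF-beta-binding proteoglycan decorin (Dcn, also a fibro-adipogenic marker) were the most abundant, at 590.0 ± 129.8 and 549.1 ± 341.2 TPM (SD over 8 libraries). Ltbp2 had the lowest p of the list (log2 fold change -1.25, SE 0.86; edgeR unadjusted p 0.179), but this rested on control replicate 2, at 7.66 CPM against 0.325 to 1.597 in the other 7, and without it the value was 0.35. Wfikkn1, which binds myostatin, followed at -0.69 (SE 0.52; edgeR unadjusted p 0.220), and at -0.18 without control replicate 5.

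Of 14 pathway targets tested, 10 had a fold change above 0 (median 0.086). Junb, an immediate-early gene that is also among the dissociation genes, stood at 6836 ± 2325 TPM and Skil, a feedback repressor of Smads, at 209.9 ± 50.8 (SD over 8 libraries). Ccn2 (connective tissue growth factor; log2 fold change 0.64, SE 0.36, edgeR unadjusted p 0.104) and Msx1 (0.40, SE 0.25, p 0.136) had the smallest p-values. Without RhoA het replicate 6 these fold changes were 0.31 for Ccn2 and 0.13 for Msx1. Of the 7 bHLH genes, which include the partners that Id proteins bind, 4 had a fold change above 0 (median 0.027). The E protein gene Tcf4 measured 205.1, 217.2, 215.7 and 209.0 CPM in control replicates 2, 5, 7 and 8 and 248.1, 260.0, 221.5 and 244.6 CPM in RhoA het replicates 5, 6, 7 and 8. Its groups were apart (log2 fold change 0.20, SE 0.10; edgeR unadjusted p 0.0819, exact permutation p 0.0286). With the block over pairs 5, 7 and 8 the log2 fold change of Tcf4 was 0.13 (edgeR unadjusted p 0.281). The myogenic factors Myod1 and Myf5 were the most abundant of the list, at 2244 ± 511 and 783.9 ± 424.4 TPM (SD over 8 libraries), and the log2 fold change of Myod1 was -0.35 (SE 0.25; edgeR unadjusted p 0.193), and -0.14 without control replicate 2.

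The fit that blocks on the replicate number in pairs 5, 7 and 8 also leaves out control replicate 2 and RhoA het replicate 6, and it moved the pathway counts. Of 67 pathway genes tested there, 9 had an unadjusted p under 0.05 by edgeR, all higher in RhoA het, against 2.98% of all genes. They were the ligands Gdf6, Gdf11 and Gdf15, the receptors Bmpr2 and Rgmb, the ligand-binding proteins Dcn, Fst and Ltbp4, and the target Ccn2, named after their values were seen. None passed the adjusted threshold in edgeR. In the same 6 libraries without the block, only Gdf6 and Bmpr2 of these 9 had an edgeR unadjusted p under 0.05 (0.0483 and 0.0296). With the same block in DESeq2, where 39 of 14363 genes (0.272%) were changed, 1 of them was changed, Dcn, with a log2 fold change of 0.62 (DESeq2 adjusted p 0.00375), where edgeR gave 0.60 (adjusted p 0.343). The 10 fibro-adipogenic markers, of which Dcn is 1, were all detected in every library and summed to 2421 to 10833 CPM in control and 4343 to 9114 CPM in RhoA het. In the edgeR block fit, 2 of the 10 had an unadjusted p under 0.05 and were higher, Dcn included, against 2.98% of all genes. Their summed CPM was lower in RhoA het in pairs 5 and 8 and higher in pair 7. Their mean log2 level was higher in each of these pairs. The part of such cells in the 9 pathway genes was not tested. Of the 10 genes described above, 0 were changed in the edgeR block fit, against 0.0127% of all genes, and 1 had an unadjusted p under 0.05 there (Tgfbr1), against 5.26% of all genes.

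**Figure D5:**
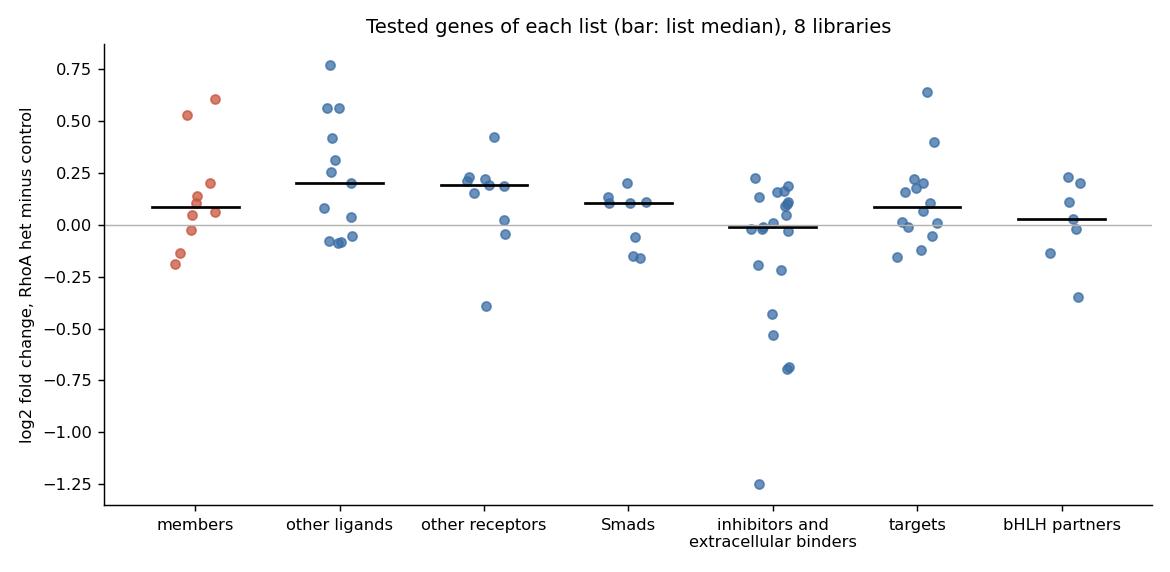
Log2 fold change in RhoA het against control of every tested gene in each pathway list, from edgeR over all 8 libraries; each point is a gene and the bar is the list's median. Medians lie between -0.0096 and 0.20, and no point passes an adjusted p of 0.05.

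Genes whose log2 CPM followed each of the 10 most closely over the 8 libraries, among 9740 with a mean of at least 5 CPM, are given as a description; with 8 libraries and so many genes, high values arise readily. For the BMP-responsive Ids they were Epb41 (r = 0.966) and Ada (0.960) for Id1, Ciao2b (0.967) and Ubxn1 (0.965) for Id2, and Ppl (0.978) and Dnajc30 (0.978) for Id3. Id4 was followed most closely by Sox5 (0.941) and Pnpla6 (0.936). The nearest to the ligands were Foxo3 (0.969) and Gxylt2 (0.956) for Mstn, and Nfix (0.965) and Selenon (0.963) for Tgfb1. The nearest to the receptors were Impact (0.945) and Stard5 (0.912) for Tgfbr1, Fam98b (0.961) and Grn (0.939) for Tgfbr2, Dnaja4 (0.926) and Tulp3 (0.901) for Bmpr1a, and Mrpl27 (0.933) and Ssu72 (0.909) for Acvr2b. No gene was among the nearest of more than 1 of the 10.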

How the data were processed

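The deposited tables hold, per the file headers, whole counts of paired fragments per gene, made by the authors with featureCounts 1.6.4 over GENCODE mouse release 34 exons on mm39, without a strand option, from STAR alignments. The authors also deposited TPM per gene; recomputed from counts and gene length, these differed by at most 5e-15 in relative terms. Per the submitters' processing notes, FastQC, cutadapt and DESeq2 were used too. The counting command names 10 alignment files, and the 8 libraries of the table were analysed. Symbols came from GENCODE release 21 (51884 genes matched).

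Counts were filtered with filterByExpr, scaled by TMM and tested with edgeR 4.0.16 (quasi-likelihood F test, R 4.3.3) over all 8 libraries, with Benjamini-Hochberg adjustment over 15660 genes and a threshold of 0.05. Log2 CPM used a prior count of 2. Exact permutation tests were two-sided over 70 assignments. Scripts were tested on simulated data. Counts of libraries within a group differed beyond counting error (lowest chi-square over degrees of freedom 48.6). Same-numbered libraries deviated together from their group means (r of 0.544, 0.231 and 0.488 for numbers 5, 7 and 8). Values for differently numbered libraries were not set beside these. The numbers, which come from the titles, were used as pairs in the block fits and the pair differences. The main fit and the permutation tests ignore them. What they stand for is not given in the sources used here.

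Besides the 10 genes, the text names, in each pathway list, genes past the threshold without or with the block, the 2 with the smallest p and the 2 with the highest mean TPM, plus the 2 genes most correlated with each of the 10. Outside that rule, pathway genes with an unadjusted p under 0.05 in the block fit, and Acvr2a, were named after their values were seen. The members and lists were chosen with earlier results of these data known. The lists overlap: Pmepa1, Skil, Smad6, Smad7 and Bambi are in 2 of the pathway lists, and Junb, Dcn and Myf5 are also in marker lists. Alternatives were DESeq2 1.42.0 (test and size factors), total counts, other filters, limma-voom (limma 3.58.1), limma on log2(TPM + 1) and log2(TPM + 0.1), the replicate block, and leaving out libraries.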

Additional observations from a re-analysis of the deposited data

Results flagged for a closer look

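In 64 groups of 4 libraries (32 named genes), the highest or lowest library was checked for a gap to its nearest neighbour that is large against the range of its group. The 95% critical value was passed in 6 of the 64, where chance gives about 3.2. For Bmpr1a, control replicate 7 lay at 34.9 CPM against 40.4 to 41.5 in the other 3 control libraries (gap over range 0.830). For Bmp4, RhoA het replicate 6 lay at 149.0 CPM against 73.4 to 86.2 (0.831). For Gdf6, RhoA het replicate 7 lay at 5.69 CPM against 3.71 to 3.96 (0.874). RhoA het replicate 5 stood apart for 3 genes: Bmpr2 at 158.9 CPM against 141.1 to 143.2 (0.881), Smad3 at 85.3 against 96.2 to 97.4 (0.907) and Smad5 at 175.1 against 128.9 to 136.8 (0.8294).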

How the results depend on the processing

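The count of 0 changed genes among the 10 held in every alternative run, those that leave out a library included (0 to 0). Over all genes, 0 were changed in every alternative except the replicate block, which gave 2 in edgeR and 39 in DESeq2, and 1 other pathway gene in DESeq2. Of 200 fold changes of the 10 genes under alternatives, 180 kept their direction and side of the threshold and 20 reversed; Id4, Mstn, Tgfbr1, Bmpr1a and Acvr2b kept their direction in all. Of the 20, 12 came from leaving out a library. The other reversed log2 fold changes were Tgfbr2 at 0.016 with total counts, 0.053 and 0.055 with limma on log2(TPM + 1) and log2(TPM + 0.1), and 0.022 without both libraries numbered 5 (chosen after seeing the data); Id1 at -0.0056 with limma-voom; and Id2 at -0.0065 with the replicate block, -0.022 in the same 6 libraries without pairing and -0.026 without both libraries numbered 5. Ltbp2 was 0.32 and 0.39 with the replicate block in edgeR and DESeq2, and 0.19 in the same 6 libraries. Leaving out each library gave -0.15 to 0.29 for Id1, -0.15 to 0.21 for Id2, -0.52 to 0.22 for Id3, 0.26 to 0.97 for Mstn, -0.11 to 0.19 for Tgfb1, -0.092 to 0.035 for Tgfbr2 and -1.63 to 0.35 for Ltbp2. The causes of the reversals were not tested. The block changed no call of the 10 genes. Mstn rested on 5 to 26 fragments per library, and its counting error was not separated from the spread between libraries.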
